A study of Mus musculus with 3 samples.

Results

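The cells described here are keratinocytes of mouse back skin in which Sox9 and Lhx2 transcripts were both detected. A cell was taken when its deposited values were above 0 for Sox9 and Lhx2, above 0 for at least 4 of the 6 keratinocyte genes Perp, Trp63, Sfn, Cdh1, Dsp and Krt5, and 0 for Shh, Pdgfra and Krt71. The rule found 489 of 16235 cells, with 38 at E16.5, an embryonic stage, and 451 at birth (P0). The members were thus chosen by measured values of these 11 genes, and those values are given below as a description. They are called double-positive follicle keratinocytes below, and the 2 stages are reported apart. The reference at each stage was every other cell of the library that passed the same 4 of 6 genes and had no Pdgfra, which gave 841 cells at E16.5 and 1025 at P0.

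Back skin was taken from male C57BL/6 mice with no mutation or treatment named, at E13.5, E16.5 and P0, and pooled tissue gave 1 library per stage of droplet-based 3' single-cell RNA sequencing, in which a captured transcript is counted once by its unique molecular identifier (UMI). Skin was digested with trypsin and EDTA at E13.5 and E16.5 and with collagenase IV at P0. Since each stage had 1 library, differences had no replicate check and were not tested. Stage, library and digestion cannot be told apart, so each difference below was taken within a library. Levels (CPM) give the UMIs of a gene in all cells of a group, divided by all UMIs of that group and multiplied by 1000000. Intervals of levels are exact Poisson and those of cell shares exact binomial (Clopper-Pearson), both at 95%, and they cover counting error only. A difference is log2 of the ratio of CPM between the double-positive cells and the reference after adding 10 to each, and a gene is called higher or lower where this passes 1 or -1 among genes with at least 50 UMIs over both groups.

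Sox9 is a transcription factor of the outer root sheath and of the early stem cells of the hair follicle. Lhx2 is a LIM homeodomain factor of the hair placode, the hair germ and the later bulge, where it is known to keep stem cells from activation. Both act in cells that sit between the surface epidermis, which makes Krt1 and Krt10 as it differentiates, and the base of the follicle, where Shh is produced and where the matrix gives rise to the inner root sheath (marked by Krt71) and the hair shaft. Pdgfra marks dermal fibroblasts.

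The double-positive cells made up 4.32% (3.08 to 5.89) of the keratinocytes with no Pdgfra at E16.5 and 30.6% (28.2 to 33) at P0. Under the same rule 2 of 287 such cells were found at E13.5, and that stage is not described further. Before the exclusions, 80 cells at E16.5 and 642 at P0 held Sox9, Lhx2 and 4 of the 6 keratinocyte genes. Taken in order, Pdgfra removed 29 of them at E16.5 and 48 at P0, Shh removed 13 and 95, and Krt71 removed 0 and 48. The share removed for the dermal gene was thus larger at E16.5, and Krt71 removed further cells at P0 alone.

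Sox9 lies at chr11:112782224-112787760 on the plus strand and Lhx2 at chr2:38339281-38369733 on the plus strand (mm10 coordinates, GENCODE vM21). The rule used both genes, so their levels are a description. Sox9 stood at 324 CPM (284 to 368) in the double-positive cells and 25.2 CPM in the reference at E16.5, and at 355 CPM (341 to 369.9) and 136 CPM at P0. Lhx2 stood at 346 CPM (304 to 391) and 30.1 CPM at E16.5, and at 404 CPM (389 to 419.5) and 278 CPM at P0. The reference at P0 held much of both genes because Sox9 was detected in 42% and Lhx2 in 44.5% of its cells. A double-positive cell had a median of 5 Sox9 UMIs and 5 Lhx2 UMIs at E16.5 and of 4 and 4 at P0.

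The lower edge of the rule was a single UMI. At E16.5, 5 cells entered with 1 Sox9 UMI, 9 with 1 Lhx2 UMI and 2 with 1 of each. At P0 these numbers were 102, 88 and 21 of 451. All 38 cells at E16.5 had 5 or 6 of the 6 keratinocyte genes, with 9 and 29 cells. At P0 97 cells had 4, 185 had 5 and 169 had all 6, and 18 cells with 3 of the 6 genes lay just outside. The share of keratinocytes with a Sox9 UMI was 17.6% at E16.5 and 59.7% at P0, against 2.16% and 5.33% in endothelial cells, which should lack it. For Lhx2 the shares were 11.1% and 61.4%, against 1.62% and 5.92%. Keratinocytes thus lay above the endothelial level for both genes, and the endothelial cells had a median of 12614 UMIs at E16.5 and 8566 at P0, which was less than the reference medians of 13185 and 9458.

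The E16.5 library held 66239195 UMIs in 5208 cells and the P0 library 46599806 in 5065. A double-positive cell held between 4628 and 61612 UMIs at E16.5, with a median of 14787, and between 4320 and 79843 at P0, with a median of 10706, so it was somewhat deeper than the median reference cell at both stages. The 2 libraries shared 32 cell barcodes, and a barcode seen in another library belonged to 0 of the 38 and 6 of the 451 double-positive cells. A doublet caller (Scrublet) marked 0 double-positive cells at E16.5 and 13 of 451 (2.88%) at P0, against 2.54% of the P0 reference, and all cells were kept. In 1 double-positive cell at E16.5 and 3 at P0, haemoglobin and Alas2 transcripts passed 1% of all UMIs, and that list summed to 8276 CPM with them and 979 CPM without them at E16.5, and to 2599.9 CPM and 279 CPM at P0.

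**Figure D1:**
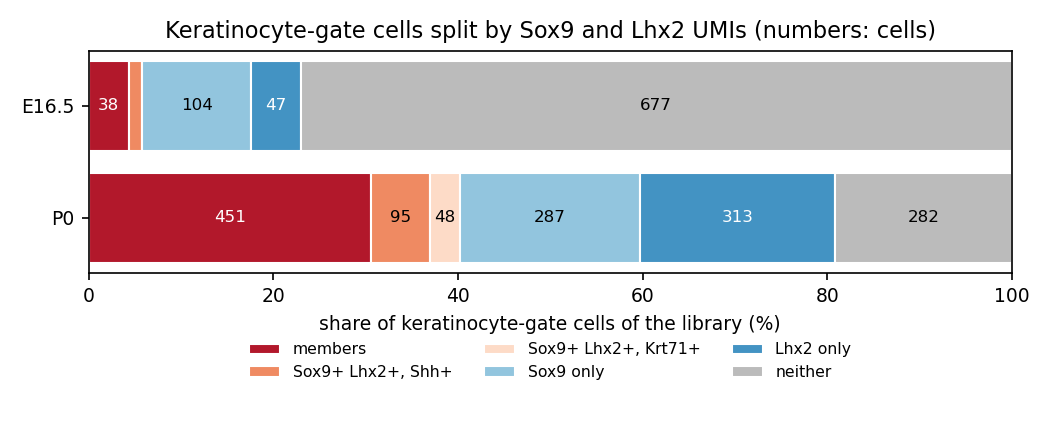
Share of the keratinocytes with no Pdgfra of each library (percent, horizontal axis) by detection of Sox9, Lhx2, Shh and Krt71, with cell numbers in the bars (members are the double-positive follicle keratinocytes, and the narrow unlabelled segment at E16.5 is the 13 cells with Shh). The members number 38 at E16.5 and 451 at P0, beside 677 and 282 cells with neither Sox9 nor Lhx2.

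The cells matched their label as follicle keratinocytes in some of the markers that the rule did not use. Krt17, a keratin of the outer root sheath and of follicle buds, was detected in all 38 cells at E16.5 and in 449 of 451 at P0. Its level stood above the reference at both stages. Krt14 and Krt15 were detected in all 38 cells at E16.5 and in 449 and 438 at P0, but stood below the reference at both stages. The suprabasal keratins Krt1 and Krt10 were among the lowest genes against the reference at both stages. Transcripts of other cell types were present as well. The 8 dermal markers summed to 2846 CPM at E16.5, 83.3% of the reference, and to 1855 CPM at P0, 80.2% of it, and per cell they ran from 10.8 to 177 UMIs per 10000 at E16.5. Col1a1, a fibrillar collagen of fibroblasts, had UMIs in all 38 cells there, at 799 CPM against 752 CPM in the reference. One cell held 134 of its 580 UMIs, and without that cell the Col1a1 level was 638 CPM, below the reference. Of the 8 dermal markers 0 were called higher and 2 lower at E16.5. At E16.5 and P0 the summed levels stood below the reference at both stages for the endothelial list (30.1% and 80.2% of it), the immune list (29.3% and 50.9%), the Merkel list (22.3% and 20.4%) and the periderm list (28.5% and 49.3%). They stood above it at both for the dermal condensate and papilla list (179.8% and 121%) and the haemoglobin list (256% and 157%), which without the cells over 1% came to 979 CPM against 930.3 CPM and 279 CPM against 278 CPM. The melanocyte list (26% and 102%), the pericyte list (80.3% and 128%) and the Schwann cell list (109% and 94.2%) lay on different sides at the 2 stages, and the 4 muscle genes summed to 2.75 CPM and 0.895 CPM. In the immune list Ptprc, the common leukocyte marker, had 0 UMIs at both stages, while Tyrobp had 6 and 53 UMIs, Fcer1g 1 and 45, C1qb 5 and 26, Cd52 0 and 41 and Csf1r 0 and 8. The part of these transcripts in the results was not tested.

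At E16.5 the double-positive cells differed from the reference in 132 genes called higher (1.25% of 10562 genes tested) and 129 called lower (1.22%), and the median log2 difference over all genes was 0.05. The transcription factor genes Runx1, Barx2, Nfatc1 and Tbx1 were among the 15 highest. Runx1, a factor of the follicle stem cell compartment, was detected in 34 of 38 cells. Per cell it ran from 0 to 10.8 UMIs per 10000 with a median of 1.54, and its level was 205 CPM (174 to 241) against 22.7 CPM (20.2 to 25.4), a log2 difference of 2.72. Tbx1, a T-box factor of the follicle stem cells, was detected in 19 cells. Its level was 63.4 CPM (46.4 to 84.5) against 2.24 CPM (1.5 to 3.21), a log2 difference of 2.58. Nfatc1, a factor that keeps bulge cells quiescent, stood at 95 CPM against 7.49 CPM (log2 difference 2.59) and was found in 23 cells. Barx2, a homeobox factor, stood at 258 CPM (222 to 297) against 31.3 CPM, a log2 difference of 2.69, in 26 cells.

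The 15 highest also held genes of secreted and surface proteins. Pthlh, which encodes parathyroid hormone-related protein, stood at 179 CPM against 18.2 CPM, a log2 difference of 2.74. Tgfb3, a TGF-beta ligand, stood at 107 CPM (84.9 to 134) against 8.26 CPM (6.77 to 9.98), a log2 difference of 2.69, and was found in 27 of 38 cells. The serine protease-like gene Prss35 stood at 92.3 CPM against 8.03 CPM, with a log2 difference of 2.50. The cell adhesion molecule Alcam was found in 36 of 38 cells at 431 CPM against 88 CPM (log2 difference 2.17). Cntfr, a receptor subunit for ciliary neurotrophic factor, Casz1, a zinc finger factor, Creb5, a bZIP factor, Pfn2, a profilin, Bdnf, a neurotrophin, and Atp6v1b1, a proton pump subunit, completed the 15 highest genes, beside Krt79, with log2 differences from 2.18 to 2.40. All 15 stayed at a log2 difference of 1 or more without the single cell that held most of their UMIs.

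Krt79, a keratin of the upper follicle, had the largest log2 difference at E16.5 (3.28, 274 CPM against 19.2 CPM), but it was carried by few cells. It was detected in 7 of 38 cells, and 1 cell held 131 of its 199 UMIs (65.8%). Without that cell the level was 96.6 CPM and the log2 difference 1.87. Of the 249 Krt79 UMIs in the reference, 16 lay in cells with neither Sox9 nor Lhx2, 21 with Sox9 alone and 2 with Lhx2 alone. All the others lay in the 13 cells with Sox9, Lhx2 and Shh, so Krt79 was not particular to the double-positive cells described here. When every cell was first thinned to 3500 UMIs and the rule was applied again, 13 cells were left and the Krt79 difference was -1.79.

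Krt1, Krt10 and Cnfn, which are made in differentiating epidermis, and the ligands Bmp2 and Wnt16 were among the 15 lowest genes at E16.5. Krt1 stood at 73 CPM (54.7 to 95.5) against 676 CPM, a log2 difference of -3.05, and Krt10 at 101 CPM (78.8 to 126) against 707 CPM, a log2 difference of -2.70. Cnfn, which encodes the cornified envelope protein cornifelin, had 3 UMIs, and the reference level was 42.8 times as high (14.6 to 207). Of the 2289 Cnfn UMIs in the reference, 1567 lay in cells with Sox9 alone (920.4 CPM) and 643 in cells with Lhx2 alone (894 CPM). Cnfn was thus carried by the single-positive cells and not by the reference at large. The BMP ligand Bmp2 stood at 5.51 CPM (1.5 to 14.1) against 86.4 CPM (81.5 to 91.7), with a log2 difference of -2.64. Dkk4, a secreted Wnt inhibitor of early placodes, had 0 UMIs and was at least 9.88-fold lower, taking a floor of 3 UMIs over the 38 cells. Wnt16 stood at 11 CPM against 75.9 CPM (log2 difference -2.03) and Igfbp2, an IGF-binding protein, at 42.7 CPM against 222 CPM (log2 difference -2.14). Within the reference, Bmp2 stood at 248 CPM in cells with Lhx2 alone and 81.1 CPM in cells with neither factor, and Dkk4 at 125 CPM and 41.1 CPM. The other genes among the lowest 15 were Psca and Krt4, with 1 and 2 UMIs in the double-positive cells, Sprr1a and Ccer2 with 3 each, the cystatin-family genes BC100530, Stfa3 and Stfa1, and Cd74, the invariant chain of MHC class II. Cells with Sox9 alone held most of the reference UMIs of Psca (1132 of 1246), Sprr1a (950 of 1084) and Krt4 (474 of 592).

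At P0 the differences from the reference were smaller. There were 15 genes called higher (0.139% of 10817) and 92 lower (0.851%), and the median log2 difference over all genes was 0.02. The reference at P0 held 95 double-positive cells with Shh and 48 with Krt71, besides 287 with Sox9 alone and 313 with Lhx2 alone. With every cell that held Shh or Krt71 left out of the reference, 46 genes were higher and 158 lower, and all of the 15 stayed among the 46. Of the 15, 7 were still called higher when cells needed at least 2500 genes, and 7 when all 6 keratinocyte genes were required. With the 282 cells that had neither Sox9 nor Lhx2 as the reference, 189 genes were higher (2.01% of 9398) and 270 lower (2.87%).

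Prss35 was the highest gene at P0. It was detected in 249 of 451 cells, ran from 0 to 9.35 UMIs per 10000 with a median of 0.567, and stood at 97.7 CPM (90.4 to 105) against 31.9 CPM (28.9 to 35.2), a log2 difference of 1.36. Tbx1 was found in 188 cells at 85.2 CPM (78.3 to 92.5) against 27.7 CPM (24.9 to 30.7), a log2 difference of 1.34. Tgfb3 was found in 262 cells at 83.8 CPM (77.1 to 91.1) against 30.5 CPM (27.6 to 33.7), a log2 difference of 1.21. The same 3 genes were also among the 15 highest at E16.5. Lgr5, a receptor for R-spondins and a marker of follicle stem cells, stood at 39.5 CPM (34.9 to 44.6) against 14.4 CPM (12.4 to 16.6), a log2 difference of 1.02, with UMIs in 158 of 451 cells. The GDNF-family ligand Nrtn stood at 159 CPM against 67.8 CPM (log2 difference 1.12), and the receptor Fgfr1 at 134 CPM against 60.9 CPM (log2 difference 1.02). Krtap17-1, which encodes a keratin-associated protein, stood at 133 CPM against 57.2 CPM (log2 difference 1.09). Col14a1, a fibril-associated collagen, Moxd1, a monooxygenase, Sema3b, a semaphorin, Elmo1, an engulfment and motility adaptor, Cdc42ep3, a Cdc42 effector, Pla2g7, a phospholipase, Rasl11a, a small GTPase, and Edn1, the endothelin 1 precursor, made up the rest, with log2 differences from 1.04 to 1.19.

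The 2 lowest genes at P0 were the suprabasal keratins Krt1 and Krt10. Krt1 stood at 46.8 CPM (41.8 to 52.3) against 1647 CPM (1625 to 1669), a log2 difference of -4.87. Krt10 stood at 101 CPM (93.8 to 109) against 1785 CPM (1762 to 1808), a log2 difference of -4.01. The cystatin-family genes Stfa3, BC100530 and Stfa1 had log2 differences of -3.40, -3.11 and -3.03, and Ccer2 had -3.12. The imprinted non-coding RNA H19 stood at 91.6 CPM (84.5 to 99.1) against 689.5 CPM (675 to 704), a log2 difference of -2.78, and at E16.5 it had stood at 568 CPM against 1145 CPM. Calm4, an epidermal calmodulin-like gene, stood at 136 CPM against 588 CPM (log2 difference -2.03). Krt28 of the inner root sheath and Krt35 of the hair shaft were low too, at 6.71 CPM against 75.2 CPM and 3.73 CPM against 48.4 CPM. The hair shaft keratins Krt33a (4.62 CPM against 2.93 CPM) and Krt34 (2.69 CPM against 3.24 CPM) did not pass the threshold. Cells with Krt71, which marks the inner root sheath, had been taken out of the double-positive cells by the rule and kept in the reference. Most of the reference UMIs of Krt28 (749 of 975) and Krt35 (402 of 628) lay in cells with Lhx2 alone, however. Lgals3 (galectin 3), Krt16, Fam25c, the aquaporin Aqp3 and Npl had log2 differences from -2.46 to -2.08.

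Taking the stages side by side, 10107 genes were tested at both. Of these, 8 were called higher at both stages, 35 were lower at both, and 0 were called in opposite directions. The 8 were Tgfb3, Tbx1, Prss35, Moxd1, Elmo1, Fgfr1, Nrtn and Col14a1. They were 6.15% of the 130 genes called higher at E16.5 and 72.7% of the 11 called higher at P0. The 35 lower genes were 32.4% of those at E16.5 and 43.2% of those at P0, and they included Krt1, Krt10, Krt14, Krtdap, Bmp2, Wnt16, Klf4 and Myc, the last of which was chosen after its values were seen. Of the 130 genes higher at E16.5, 111 (85.4%) were above 0 at P0, against 54.4% of all genes tested, and of the 108 lower ones 98 (90.7%) were below 0. Across genes, which are not independent replicates, Pearson's r was 0.44 and Spearman's rho 0.28.

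**Figure D2:**
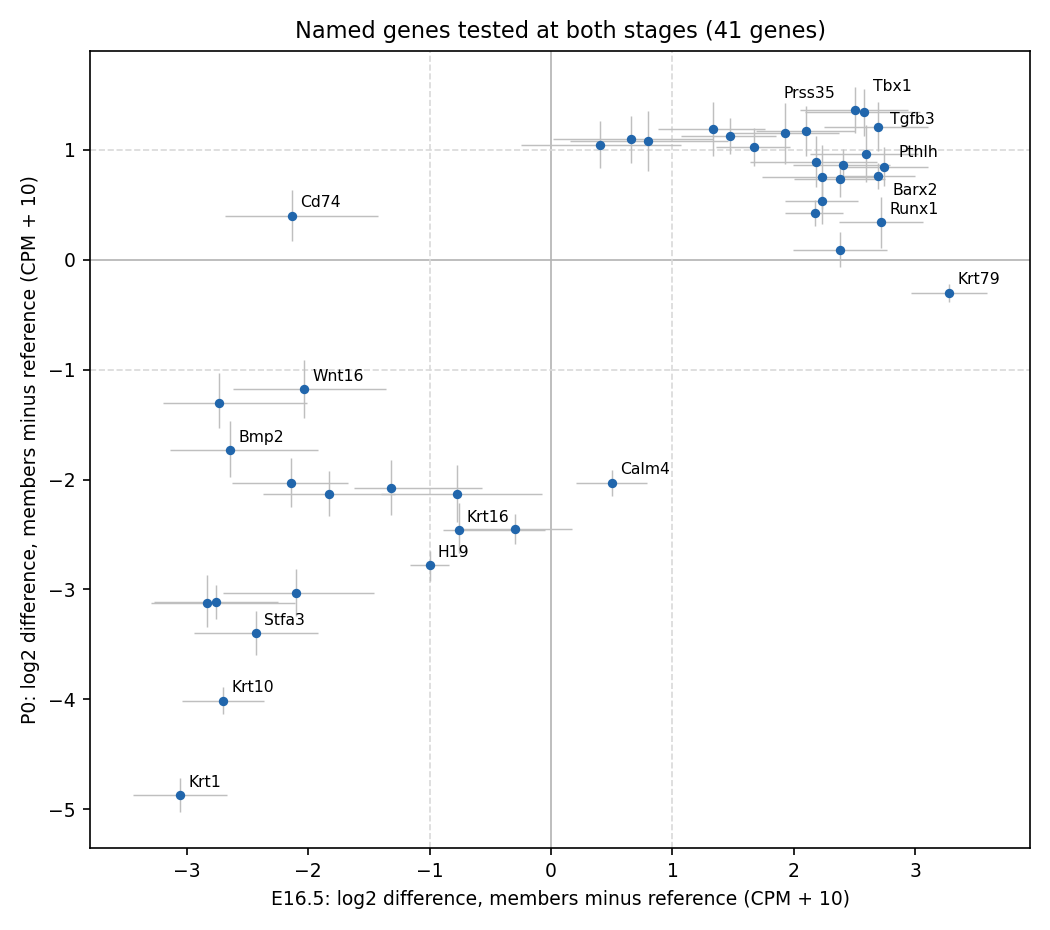
Log2 differences of the 41 named genes tested at both stages, with E16.5 on the horizontal axis and P0 on the vertical axis, each as double-positive cells minus reference on CPM plus 10, and with grey lines for 95% counting intervals. Tbx1, Prss35 and Tgfb3 lie at the upper right, Krt1 and Krt10 at the lower left, and Krt79 far right and just below 0 at P0.

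Because Tbx1, Prss35 and Elmo1 were higher at both stages, their promoters are given here as context for those differences. RefSeq (GRCm38.p6) gave a promoter for 5 of the 8 genes, from 250 bases before to 50 after a transcription start, on the strand of the gene. Capitals would mark any match on either strand to AACAAT (the SOX core), TAATTA (the LIM homeodomain core) or ATCAAAG (the TCF/LEF core), and the 1 match is that for TCF/LEF in Elmo1. The printed Tbx1 window is chr16:18590622-18590921 on the minus strand, the Prss35 window chr9:86743383-86743682 on the plus strand and the printed Elmo1 window, at a start inside the gene, chr13:20472740-20473039 on the plus strand. Tbx1 and Elmo1 each had another window that is not printed, chr16:18588850-18589149 and chr13:20090257-20090556, and each of these held 0 matches.
Tbx1: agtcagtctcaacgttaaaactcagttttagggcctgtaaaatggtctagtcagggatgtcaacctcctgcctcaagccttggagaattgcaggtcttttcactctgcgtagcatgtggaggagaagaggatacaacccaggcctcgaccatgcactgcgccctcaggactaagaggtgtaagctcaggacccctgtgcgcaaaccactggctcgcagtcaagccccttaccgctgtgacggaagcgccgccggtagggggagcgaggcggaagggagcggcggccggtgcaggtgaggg
Prss35: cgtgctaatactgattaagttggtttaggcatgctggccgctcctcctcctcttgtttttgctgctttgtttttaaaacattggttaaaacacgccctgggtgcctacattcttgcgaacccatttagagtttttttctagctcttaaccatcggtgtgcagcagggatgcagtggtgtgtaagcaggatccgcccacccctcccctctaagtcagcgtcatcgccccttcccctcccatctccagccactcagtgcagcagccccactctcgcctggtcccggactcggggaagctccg
Elmo1: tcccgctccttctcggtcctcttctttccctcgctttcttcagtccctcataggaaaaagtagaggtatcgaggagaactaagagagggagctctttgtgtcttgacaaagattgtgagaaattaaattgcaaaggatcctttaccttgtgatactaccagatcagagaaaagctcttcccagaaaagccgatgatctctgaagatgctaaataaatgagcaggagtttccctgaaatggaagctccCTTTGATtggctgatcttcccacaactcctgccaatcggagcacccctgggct
A match is a description and not a binding site. Of 27025 symbols with a promoter in that table, 12.2% held AACAAT, 6.12% TAATTA and 4.29% ATCAAAG. Among the 132 genes higher at E16.5, 98 had a promoter, and 14 (14.3%), 5 (5.1%) and 5 (5.1%) held the 3 motifs. Among the 129 genes lower at E16.5, 96 had a promoter, and 5 (5.21%), 7 (7.29%) and 6 (6.25%) did. None of these shares was tested.

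**Figure D3:**
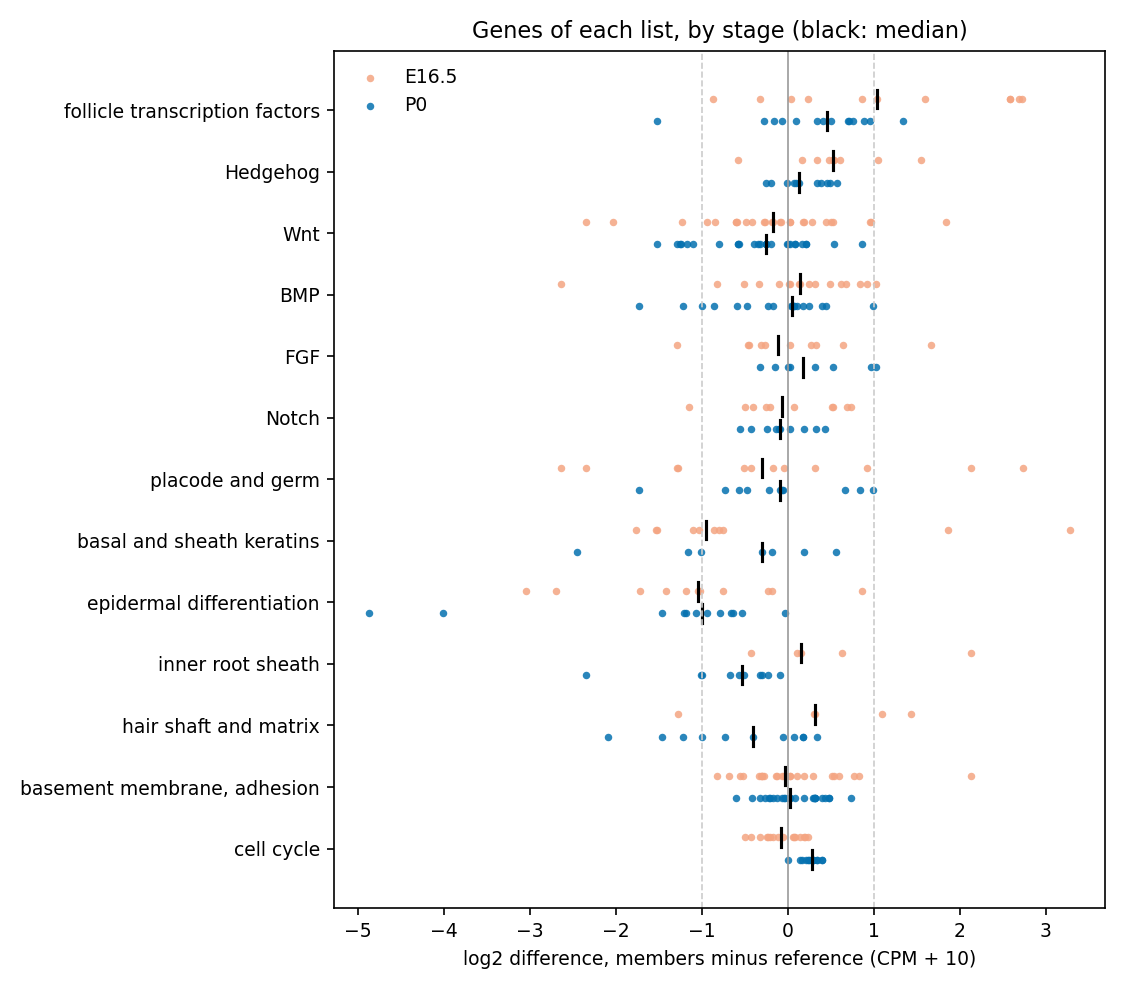
Log2 differences (double-positive cells minus reference, CPM plus 10) of the tested genes of each list, 1 point per gene, with E16.5 and P0 in separate colours, a black mark at each median and dashed lines at the threshold. The plot leaves out the markers of other cell types, the surface and secreted follicle markers, and the lists of cell cycle exit and of the response to dissociation. Among the lists plotted, follicle transcription factors have the highest medians at E16.5 and P0, 1.04 and 0.45, and epidermal differentiation genes the lowest, -1.05 and -1.01.

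Genes of each pathway were taken from lists, and each list is described by its counts and its median. Over all genes tested, 1.25% were higher and 1.22% lower at E16.5, and 0.139% were higher and 0.851% lower at P0. The list counts below stand beside these shares and were not tested against them. Among follicle progenitor factors, 6 of 11 tested genes were called higher and 0 lower at E16.5, with a median of 1.04. The 6 were Runx1, Barx2, Nfatc1, Tbx1, Sox11 (63.4 CPM against 14.1 CPM) and Tcf7l2 (128 CPM against 57.2 CPM). At P0, 1 of 14 was higher, Tbx1, and 1 was lower, Sox21 (16.3 CPM against 65.5 CPM, log2 difference -1.52), with a median of 0.45. Nfib, a factor of follicle and melanocyte stem cell signalling, stood at 789 CPM against 431 CPM at E16.5 and 561 CPM against 301 CPM at P0, with log2 differences of 0.86 and 0.88. Sox11 is a SOX-family factor of embryonic skin, and its log2 difference went from 1.60 at E16.5 to -0.16 at P0. Runx1 went from 2.72 to 0.34 and Nfatc1 from 2.59 to 0.96.

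Surface and secreted markers of adult follicle compartments were mixed. At E16.5, 2 of 12 were higher and 2 lower (median -0.17), and at P0, 1 of 13 was higher and 1 lower (median 0.05). Lgr6, a receptor related to Lgr5 and found in the upper follicle, and Lrig1, a marker of the junction below the opening of the follicle, were higher at E16.5 with log2 differences of 1.08 and 1.13 and had 0.45 and 0.63 at P0. Cd34, a bulge marker of adult mice, had log2 differences of -0.87 and 0.03. Postn and Slc1a3 were lower at E16.5, with log2 differences of -1.48 and -1.41. Slc1a3, a glutamate transporter, was the gene that was lower at P0 (15.2 CPM against 40.6 CPM).

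In the hedgehog pathway the ligand gene Shh was set to 0 by the rule, and the receptors and targets were measured. Ptch1, the receptor that is itself a target of the pathway, stood at 255 CPM against 80.2 CPM at E16.5 and 189 CPM against 124 CPM at P0, with log2 differences of 1.55 and 0.57. Gli1, a target and effector, stood at 55.1 CPM against 21.5 CPM and 69.8 CPM against 47 CPM, with log2 differences of 1.05 and 0.49. These 2 genes were the 2 of 10 called higher at E16.5, where the median was 0.53. At P0, 0 of 11 were called, and the median was 0.13. The effector Gli2 had log2 differences of 0.53 and 0.38 and the signal transducer Smo 0.53 and 0.09.

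More Wnt genes were called lower than higher, and at P0 this held over all genes too (0.851% lower and 0.139% higher). At E16.5 1 of 27 was higher and 3 lower (median -0.17), and at P0 0 of 27 were higher and 6 lower (median -0.26). The secreted Wnt inhibitor Wif1 stood at 143 CPM against 32.8 CPM at E16.5, a log2 difference of 1.84, and at 18.2 CPM against 23.8 CPM at P0. The 3 lower genes at E16.5 were Dkk4, Wnt16 and the receptor Fzd10 (49.6 CPM against 129.5 CPM). At P0 the ligands Wnt3, Wnt4, Wnt10a and Wnt16 had log2 differences of -1.29, -1.26, -1.11 and -1.18. The target genes Sp5 and Notum had -1.52 and -1.24, and without the cells that held Shh or Krt71 in the reference, the Sp5 difference was 0.11. The target Axin2 did not pass the threshold, with -0.42 at E16.5 and -0.25 at P0.

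Among BMP genes the ligand Bmp2 was lower at both stages (14.2 CPM against 70.2 CPM at P0, log2 difference -1.73). The target Msx1 was lower at P0, at 3.73 CPM against 22.1 CPM, and the target Id4 was higher at E16.5, at 27.5 CPM against 8.41 CPM. The counts were 1 of 17 higher and 1 lower at E16.5 (median 0.14) and 0 of 18 higher and 2 lower at P0 (median 0.04). Sostdc1, a secreted BMP and Wnt modulator of follicle epithelium, stood just under the threshold at both stages. Its level was 602 CPM against 314 CPM at E16.5 and 792 CPM against 393 CPM at P0, with log2 differences of 0.92 and 0.99, and it was detected in 34 of 38 and 416 of 451 cells. In the FGF list Fgfr1 was the gene higher at each stage, with log2 differences of 1.67 and 1.02, and the ligand Fgf20 was the 1 lower at E16.5, with 0 UMIs and at least 3.49-fold lower at a floor of 3 UMIs. The FGF target Etv4 had log2 differences of 0.03 and 0.97. In the Notch list 1 of 10 genes was called at E16.5, the ligand Dll1, with 3 UMIs in the double-positive cells and a reference level 5.19 times as high (1.76 to 25.3), and 0 of 10 at P0.

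Keratins of the basal layer and root sheaths separated the double-positive cells in both directions at E16.5. Krt17 stood at 2293 CPM against 623 CPM, a log2 difference of 1.86, and ran from 3.63 to 150.2 UMIs per 10000 between cells with a median of 21.2. The basal keratin Krt14 was lower, at 1557 CPM against 4483 CPM, a log2 difference of -1.52, although it was detected in all 38 cells. Krt15, a keratin of basal and later bulge cells, stood at 1336 CPM against 2430 CPM (log2 difference -0.86). In the whole list 2 of 10 genes were higher and 5 lower, and at P0 0 of 7 were higher and 3 lower. At P0 Krt14 stood at 2506 CPM against 5059 CPM (log2 difference -1.01), Krt15 at 1688 CPM against 3795 CPM (-1.16) and Krt17 at 3388 CPM against 2292 CPM (0.56). Krt17 was thus above the reference and Krt14 and Krt15 below it at either stage.

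Among genes of epidermal differentiation 7 of 11 were lower and 0 higher at E16.5 (median -1.05), and 6 of 12 were lower and 0 higher at P0 (median -1.01). The list summed to 872 CPM against 3166 CPM at E16.5 and to 826 CPM against 5268 CPM at P0. Besides Krt1 and Krt10 they included Krtdap (log2 differences of -1.42 and -1.46), the desmosomal cadherin Dsg1a (-1.02 and -1.07), Sbsn (-1.19 and -1.21) and the factor Klf4 (-1.05 and -1.19), all lower at both stages. Among inner root sheath genes 1 of 5 was higher at E16.5, the factor Trps1 (171 CPM against 31.2 CPM, log2 difference 2.13), which had -0.09 at P0. At P0 3 of 10 were lower, Krt25, Krt27 and Krt28. Among hair shaft and matrix genes, 2 of 5 were higher at E16.5, Hoxc13 (30.3 CPM against 4.94 CPM) and Ccnd1 (212 CPM against 93.7 CPM), and 1 was lower, Lef1 (75.8 CPM against 198 CPM). At P0, 0 of 11 were higher and 3 lower, Krt35, Mycl (-1.47) and Msx1 (-1.22), and Msx2 lay at the threshold without passing it (9.7 CPM against 29.3 CPM). Placode and hair germ genes gave 2 of 12 higher, Pthlh and Trps1, and 4 lower, Bmp2, Dkk4, Fgf20 and Lef1, at E16.5, and 0 of 11 higher and 1 lower, Bmp2, at P0.

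Adhesion and cell cycle genes lay close to the reference. In the list of basement membrane and adhesion genes Ncam1, a neural cell adhesion molecule, was the 1 of 26 called at E16.5 (220.4 CPM against 42.7 CPM, log2 difference 2.13), and 0 of 27 were called at P0, where Ncam1 had 0.74. Among 16 cell cycle genes 0 were called at either stage, with medians of -0.09 and 0.28, and they summed to 1917 CPM against 2001 CPM at E16.5 and 2072 CPM against 1689.7 CPM at P0. Mki67, the proliferation marker, stood at 118 CPM against 113 CPM and 50.6 CPM against 44.1 CPM. Cdkn1a, an inhibitor of the cycle, was the 1 gene lower at P0 in the list of cell cycle exit (85.5 CPM against 186 CPM, log2 difference -1.04), and had 0.72 at E16.5, where 0 of 6 were called. Genes of the response to dissociation gave 0 of 12 calls at E16.5 and 3 lower at P0, Atf3 (-1.82), Dusp1 (-1.19) and Zfp36 (-1.17), and they summed to 3706 CPM against 5221 CPM at P0. The part of dissociation in the P0 values was not tested.

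Depth was then made equal by thinning each cell to 3500 UMIs. At E16.5 a Runx1 UMI was found in 47.4% (31 to 64.2) of the double-positive cells, 5.47% of the reference and 2.7% of endothelial cells, while the unthinned shares were 89.5%, 17.8% and 9.73%. Prss35 was found in 23.7%, 1.9% and 1.08% (unthinned 65.8%, 4.52% and 1.08%). Tbx1 was found in 13.2% (4.41 to 28.1), 0.357% and 8.11% (unthinned 50%, 2.02% and 18.9%). The Tbx1 share at E16.5 was therefore not above the endothelial share beyond its counting interval, and endothelium expressed Tbx1 at 23 CPM. At P0 Tbx1 was found in 22.8% (19 to 27), 6.05% and 4.73% (unthinned 41.7%, 10.5% and 10.1%). Lgr5 was found in 14.6% (11.5 to 18.2), 3.41% and 0% of 169 endothelial cells, which allows a share of up to 2.16% (unthinned 35%, 10.5% and 0.592%). Barx2 was found in 53.4% (48.7 to 58.1), 29% and 0.592% (unthinned 76.5%, 46.9% and 0.592%). These orders were the same as those of the CPM between double-positive cells and reference. For Krt10 at E16.5 the share in the double-positive cells, 21.1% (9.55 to 37.3), lay at the endothelial 27% (unthinned 78.9% and 57.8%), so that its level there cannot be told from background.

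The reference was then divided by what its cells held, to compare the double-positive cells with those most like them. At P0 Tbx1 stood at 85.2 CPM in the double-positive cells, 20.3 CPM in double-positive cells with Shh, 189.7 CPM in those with Krt71, 7.5 CPM in cells with Sox9 alone, 18.2 CPM in cells with Lhx2 alone and 2.5 CPM in cells with neither. Tbx1 was thus highest in the Krt71 cells and next in the double-positive cells. It was low wherever Sox9 or Lhx2 was missing, and as low in double-positive cells with Shh (20.3 CPM) as in those with Lhx2 alone (18.2 CPM). Prss35 was highest in the double-positive cells, with 97.7 CPM against 52.6, 49.5, 17.6, 54.6 and 4.29 CPM in the same order. Lgr5 stood at 39.5 CPM against 10.4, 65.5, 4.4, 21.3 and 1.43 CPM. At E16.5, where only 13 double-positive cells held Shh and 0 held Krt71, Tbx1 stood at 63.4 CPM, 28.6 CPM with Shh, 4.7 CPM with Sox9 alone, 2.78 CPM with Lhx2 alone and 0.788 CPM with neither. Prss35 there did not set the cells apart from those with Shh (92.3 CPM against 122 CPM), but it stood at 15.9, 18.1 and 1.67 CPM in the other 3 groups. Against those 13 cells with Shh, 32 genes were higher and 21 lower of 3238 tested. Apart from haemoglobin genes, Anxa1 (log2 difference 2.01), Calm4 (1.53) and Gas1 (1.45) led the higher genes, and were named after their values were seen. Runx1, Barx2 and Nfatc1 did not exceed Krt15 (1.31) in this comparison.

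Other genes divided the single-positive cells. Barx2 at P0 stood at 289 CPM in the double-positive cells, 239 CPM with Sox9 alone and 154 CPM with neither, but at 23.8 CPM with Lhx2 alone and 77.1 CPM in the double-positive cells with Shh. Krtap17-1 went the other way, with 133 CPM in the double-positive cells, 90 CPM with Lhx2 alone, 5.95 CPM with Sox9 alone and 1.79 CPM with neither. Of its 741 UMIs in the reference, 23 lay with Sox9 alone and 5 with neither. The others lay with Lhx2 alone or in the double-positive cells with Shh or Krt71, so the gene was not particular to the cells described here. The epidermal keratin Krt10 stood at 101 CPM in the double-positive cells and 126 CPM with Lhx2 alone, against 2767 CPM with Sox9 alone and 4195 CPM with neither, and H19 at 91.6, 77.8, 970.5 and 1695 CPM in the same order. Ptch1 was at 189 CPM in the double-positive cells, 214 CPM with Shh and 169 CPM with Krt71, against 119 CPM and 122 CPM with Sox9 or Lhx2 alone and 54 CPM with neither. Bmp2 was at 14.2 CPM in the double-positive cells and 1.68 CPM with Krt71, but at 116 CPM with Shh and 101 CPM with Lhx2 alone.

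**Figure D4:**
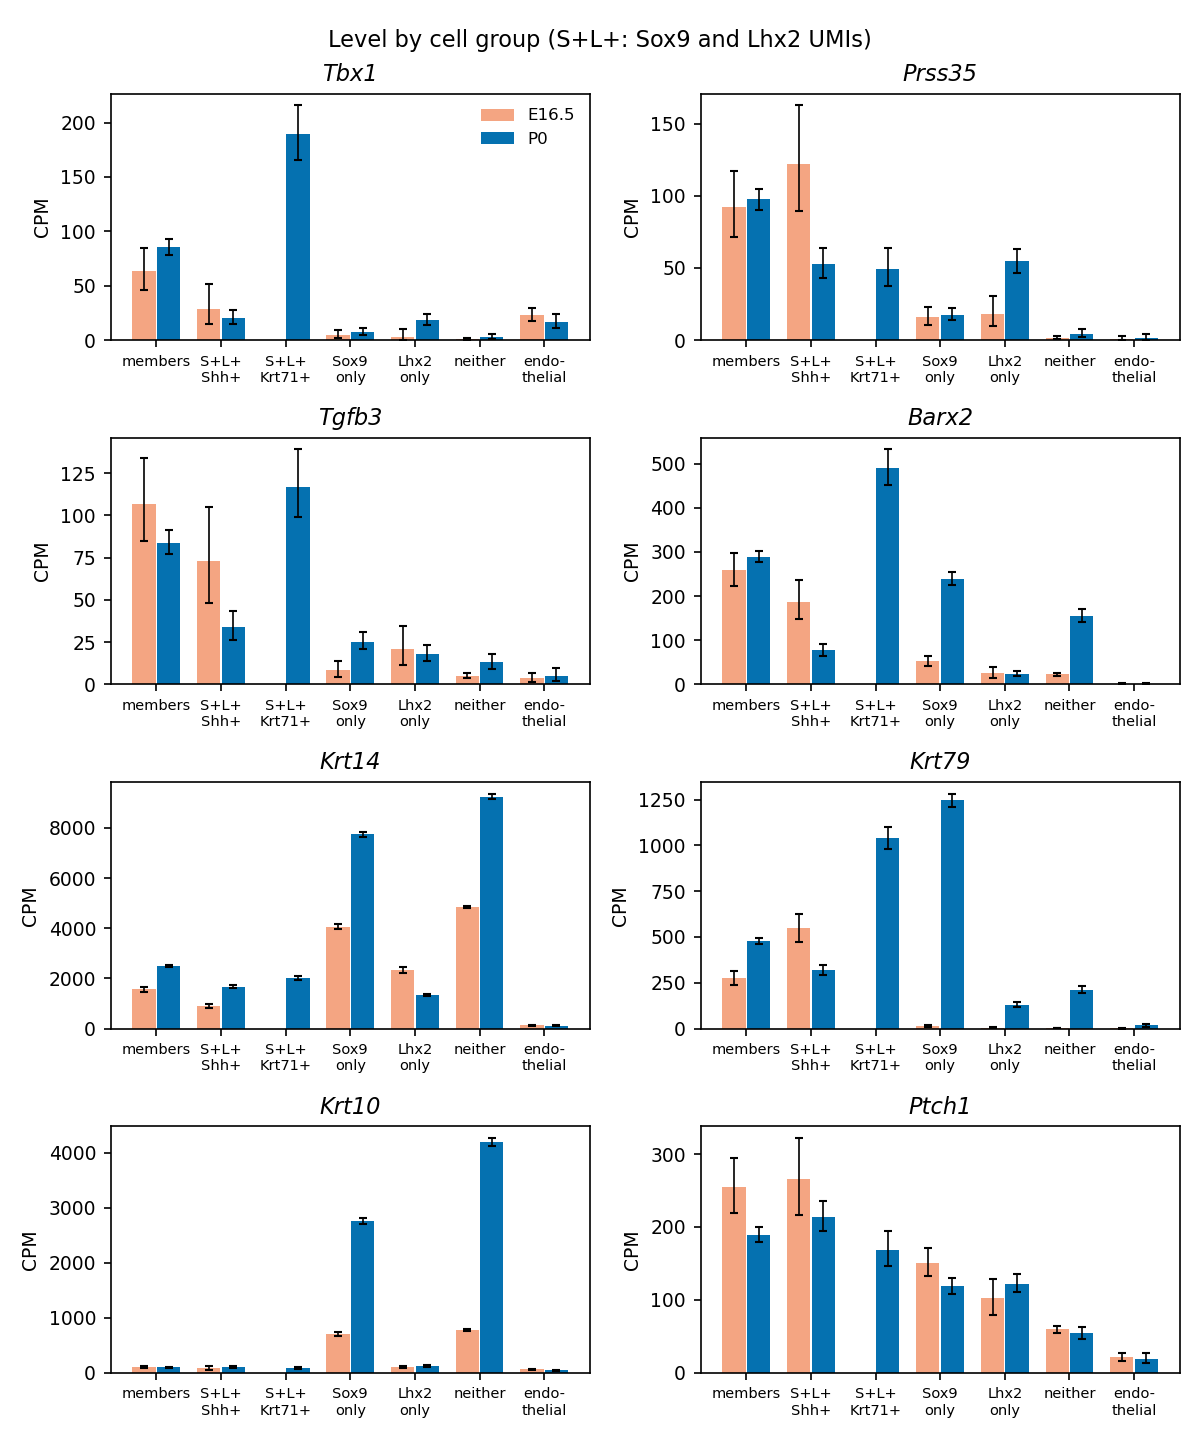
Levels in CPM (bars from 0, with 95% exact Poisson intervals) of 8 genes at E16.5 and P0 in the double-positive follicle keratinocytes (members), in double-positive cells (S+L+) with Shh or Krt71, in cells with Sox9 alone, Lhx2 alone or neither, and in endothelial cells. At P0 Tbx1 reads 85.2 CPM in the members, 189.7 CPM in cells with Krt71 and 2.5 CPM in cells with neither factor, and no bar stands for Krt71 at E16.5 because 0 such cells were found.

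Against the 95 double-positive cells with Shh at P0, 62 genes were higher (0.682% of 9086) and 61 lower (0.671%). Apart from haemoglobin genes, Krtdap led the higher genes with 491 CPM against 112 CPM (log2 difference 2.03), followed by Barx2 (1.78), Ly6d (765 CPM against 231 CPM, 1.69), Sgk1 and Tbx1 (1.65 each) and the hedgehog co-receptor Gas1 (229.9 CPM against 67.7 CPM, 1.63). The lowest were Sp5, a Wnt target (4.92 CPM against 80.7 CPM, -2.60), Bmp2 (14.2 CPM against 116 CPM, -2.38), and the factors Sox21 (16.3 CPM against 122 CPM, -2.33) and Ascl4 (-2.13). Notum, an extracellular Wnt inhibitor that is a Wnt target, stood at 0.895 CPM against 30.2 CPM. In the Wnt list 0 of 25 genes tested were higher and 6 lower (median -0.31, against 0.03 over all genes). The 6 were the targets Sp5, Notum and Nkd1 (14.6 CPM against 65.6 CPM) and the ligands Wnt3, Wnt10b and Wnt16, while the target Axin2 had -0.71. In the BMP list 1 of 15 was higher, Sostdc1 (792 CPM against 285 CPM), and 2 were lower, the ligands Bmp2 and Bmp4 (19.4 CPM against 81.2 CPM), while the ligand Bmp7 had -0.82 (median -0.03). Ptch1 stood at 189 CPM against 214 CPM and Gli1 at 69.8 CPM against 74.4 CPM. Of the markers of other cell types, 4 of 5 in the haemoglobin list were higher and 2 of 4 in the immune list lower. Krtdap, Ly6d, Sgk1 and Ascl4 were named in this comparison after their values were seen.

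Krt79 and Lgr5 were then counted in the same double-positive cells at P0, with depth made equal and without. With every cell thinned to 3500 UMIs, Krt79 was found in 92 of 451 cells and Lgr5 in 66 (14.6%). Lgr5 was found in 3 of the 92 cells with Krt79 (3.26%). Without thinning and without the 3 cells rich in haemoglobin transcripts, it was found in 50 of the 165 cells with Krt79 (30.3%), against 35% of the 448 cells, so the low overlap was seen at equal depth alone. Tbx1 was found in 30 of the 66 cells with Lgr5 (45.5%) and in 17 of the 92 with Krt79 (18.5%), against 22.8% of all 451. These 3 pairs of genes were picked from 22 after their values were seen, so they and the following split are a description. Of the 448 cells without thinning, 115 held Krt79 alone (median 11068 UMIs), 107 held Lgr5 alone (median 11765 UMIs), 50 held both (median 19452 UMIs) and 176 held neither (median 8627 UMIs). The cells with both genes were the deepest and those with neither the shallowest.

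Between the cells with Krt79 alone and those with Lgr5 alone, 112 genes were higher (1.75% of 6408) and 42 lower (0.655%). On the Krt79 side stood Krtdap, with 965 CPM against 85.2 CPM (log2 difference 3.36, in 87 of 115 and 57 of 107 cells), and Ly6d, a surface protein, with 1494 CPM against 138 CPM (3.35). Fst, which encodes follistatin, stood at 506 CPM against 49.6 CPM (3.11), Cdkn1a at 187 CPM, with 343 UMIs against 22 (3.07), Pthlh at 249 CPM against 48.4 CPM (2.15) and Krt15 at 2835 CPM against 852 CPM (1.72). On the Lgr5 side stood Tbx1, with 40.8 CPM against 143 CPM (-1.59, in 39 and 68 cells), Prss35, with 45.7 CPM against 133 CPM (-1.36, in 38 and 77 cells), Col14a1, with 19.6 CPM against 106 CPM (-1.97, in 26 and 67 cells), and Hoxc13, with 20.7 CPM against 64.9 CPM (-1.29). Tbx1, Prss35 and Col14a1, which were among the 8 genes higher than the reference at both stages, thus stood higher in the cells with Lgr5. Tgfb3, Moxd1, Elmo1, Fgfr1 and Nrtn, the rest of the 8, were not among the 20 genes furthest to either side, and their values are not given. Ptch1 (170.3 CPM against 181 CPM), Gli1 (59.9 CPM against 67.4 CPM), Krt17 (3901 CPM against 3089 CPM) and Barx2 (370.0 CPM against 271 CPM) did not pass the threshold. Genes of other cell types moved with this split too, and they were named after their values were seen. The 20 genes furthest to the Lgr5 side included Car3, Fabp4, Adipoq and Rbp4, which adipocytes make, and Gpihbp1, Ly6c1, Ramp2, Ly6a and Sparcl1, which endothelial cells make. One cell held 91.3% of the Car3, 71.3% of the Fabp4, 74.1% of the Adipoq and 45.7% of the Rbp4 UMIs on that side, and another held between 37.8% and 40% of those of Gpihbp1, Ly6c1, Ramp2 and Sparcl1. The endothelial list summed to 107 CPM in the cells with Lgr5 and 41.9 CPM in those with Krt79, the melanocyte list to 176 CPM and 412 CPM, and the immune list to 10.4 CPM and 53.3 CPM. On the Krt79 side a single cell held 79 of the 98 UMIs of the immune list, and Cd74, H2-Aa, H2-Ab1 and H2-Eb1, all of MHC class II, had between 95.4% and 98.3% of their UMIs in 1 cell. Without the 3 cells highest in the adipocyte and endothelial genes, 117 genes were higher and 33 lower, Tbx1 had -1.63 and Prss35 -1.41, while Car3 had -0.21, Fabp4 -0.04 and Gpihbp1 -1.07. The part of other cell types in the rest of the split was not tested.

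**Figure D5:**
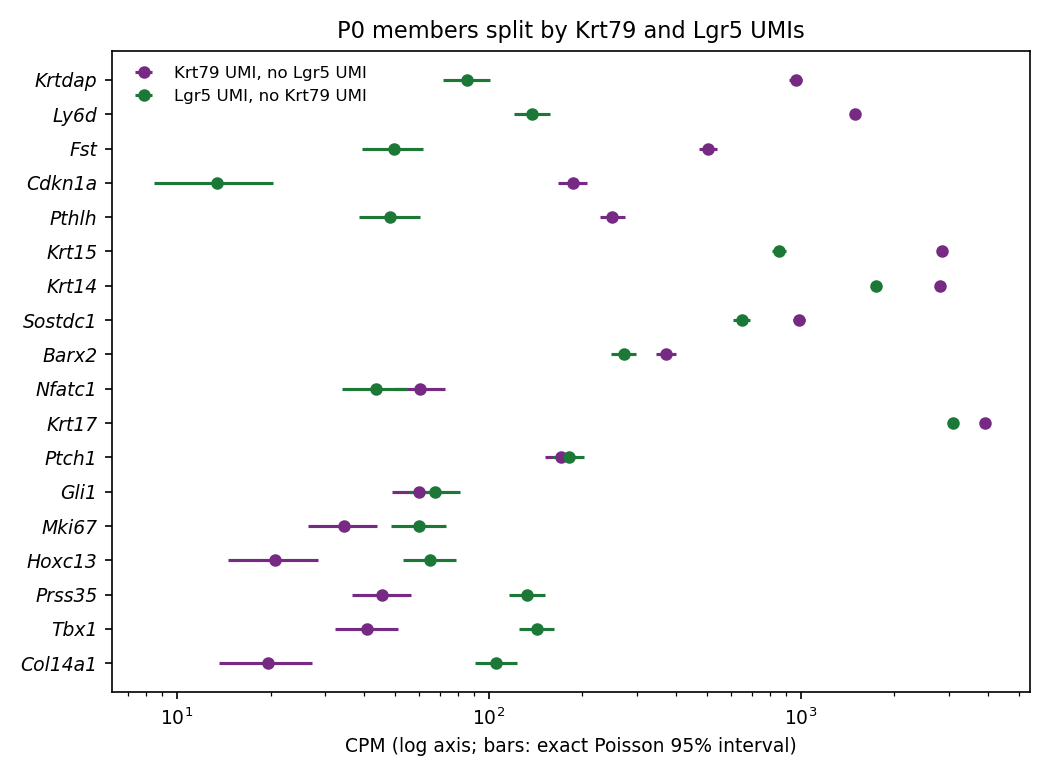
Levels in CPM (horizontal log axis, points with 95% exact Poisson intervals) of 18 genes in the double-positive cells at P0, purple for the 115 with Krt79 alone and green for the 107 with Lgr5 alone. The purple points lie to the right for Krtdap, Ly6d and Fst, the green points lie to the right for Tbx1, Prss35 and Col14a1, and the intervals overlap for Ptch1 and Gli1.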

How the data were processed

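Reads were aligned to mm10 and UMIs counted with Cell Ranger 2.2.0 per the labels and methods. The authors removed genes seen in fewer than 3 cells and cells under 1750 genes. They deposited natural log (ln) values, ln(1 + UMIs per 10000 UMIs of the cell), in 1 table of 19165 genes and 16235 cells. The values came back as whole UMIs for all 48197283 entries above 0 (tolerance 0.001). UMIs were summed over members and over reference cells, and differences were taken as log2 of CPM plus 10 within a library, with at least 50 UMIs and the 11 genes of the rule left out. Shares were taken on cells thinned to 3500 UMIs. Endothelial cells had at least 3 of Pecam1, Kdr, Cdh5, Emcn, Egfl7 and Cldn5 and at most 1 of the 6 keratinocyte genes. Named genes were the 15 highest and 15 lowest per stage and the genes of the lists, and other genes are said to be chosen later. The members and lists were chosen with earlier results of these data known. The scripts were tested on simulated data. Doublets were called with Scrublet (expected rate 0.06, scanpy 1.11.5) and kept. Analyses ran in Python 3.11.15 with numpy 2.4.6, scipy 1.17.1 and pandas 2.3.3. Alternatives changed the weight of cells, the CPM added, the minimum of UMIs, the rule, the doublets, the minimum of genes, the reference and the haemoglobin-rich cells. The last, the counts of genes called at both stages, the list counts against the cells with Shh and the split without single cells were added after seeing the data.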

Additional observations from a re-analysis of the deposited data

Results flagged for a closer look

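In 11 named or listed genes the log2 difference between the double-positive cells and the reference passed 1 or -1 at 1 stage and had the opposite sign at the other, and in none of them was the difference between stages tested. In 6 of them, Sox11, Trps1, Wif1, Dusp1, Mycl and Pmel, the counting interval at 1 stage reached across 0. In the other 5 the intervals at the 2 stages lay on opposite sides of 0. Krt79 had 3.28 at E16.5 against -0.30 at P0, and the first value was 1.87 without the cell that held 131 of the 199 UMIs. Calm4 had 0.50 at E16.5 and -2.03 at P0, and 1 cell held 35 of its 145 UMIs at E16.5, without which that value was 0.16. Cdkn1a had 0.72 at E16.5 and -1.04 at P0, and 1 cell held 15 of its 53 UMIs at E16.5, without which that value was 0.34. Cd74 had -2.13 at E16.5 and 0.40 at P0, where 330 of its 368 UMIs came from 1 cell, without which the P0 value was -1.64. Rgs5, a pericyte marker, had -1.0 at E16.5, with 3 UMIs in the double-positive cells, and 0.31 at P0, where 1 cell held 20 of 68 UMIs and the value without it was 0.08.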

How the results depend on the processing

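The 15 genes higher at P0 became 34 when each cell had equal weight, 66 with 1 CPM added, 26 with the rule applied at 3500 UMIs, 8 with a minimum of 2500 genes and 46 with the Shh and Krt71 cells out of the reference. The 92 lower genes became 295 with 1 CPM added and 158 with that reference. At E16.5 the 132 and 129 genes became 392 and 655 with 1 CPM added and 326 and 344 with the rule at 3500 UMIs, which left 13 cells there and 190 at P0. The number of cells at P0 was 282 with at least 2 UMIs of Sox9 and Lhx2 and 169 with all 6 keratinocyte genes. Genes higher at both stages numbered 19, 25, 13, 5 and 24 under equal weight, 1 CPM, the rule at 3500 UMIs, 2500 genes and the smaller reference, and those lower at both 117, 54 and 53 under 1 CPM, the rule at 3500 UMIs and the smaller reference. With the rule at 3500 UMIs the E16.5 difference changed sign for Krt79 (-1.79), Kdr (0.15), Cdh5 (0.58), Emcn (0.16), Hbb-bs (-1.28), Hba-a1 (-1.78) and Hba-a2 (-2.04), and with all 6 keratinocyte genes for Hbb-bs (-1.80), Hba-a1 (-2.22) and Hba-a2 (-2.35). Sp5 at P0 was 0.11 with the smaller reference. The cause was not tested, except that adding less CPM widens differences of low genes by construction. Without the haemoglobin-rich cells 131 and 126 genes were called at E16.5 and 15 and 90 at P0. Of the 15 genes higher at P0, 7 stayed higher with a minimum of 2500 genes, 7 with all 6 keratinocyte genes and 11 with the rule at 3500 UMIs. With 38 cells at E16.5, genes of few UMIs have wide intervals. No paired analysis was possible because each stage had 1 library and no test was run.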
